A study of Homo sapiens with 18 samples.

Results

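The transcripts described here were measured 24 h after A-485 was added to SKMEL5, WM2664 and A375, 3 established human melanoma lines that carry BRAF mutations. All 9 arrays labelled 24 h, of 18 arrays in the series, were taken: 1 array of A-485 and 2 arrays of the solvent DMSO from each line. The A-485 dose was labelled 3.0 mM in every treated sample, and that unit was not checked. The remaining 9 arrays hold the same 6 groups at 6 h and were used for the comparison between times. The design text counts 2 of the lines as sensitive and 1 as resistant without naming them and the title of the series refers to MITF, the master regulator of melanocytes.

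A-485 is a small molecule that occupies the acetyl-CoA pocket of the acetyltransferases p300 (EP300) and CBP (CREBBP) and blocks their catalysis. These closely related coactivators acetylate histones at enhancers and promoters, a mark read by bromodomain proteins that help RNA polymerase leave the promoter. In melanoma cells, enhancers of this kind keep lineage factors such as MITF and SOX10 and growth regulators such as MYC at high levels.

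Each A-485 group is 1 array with no replicate of its own, and the labels do not state whether the DMSO replicates were grown separately. The p-values therefore reflect just the spread among the arrays, some of which may be technical. The DMSO pairs of 24 h correlated across genes at 0.988, 0.992 and 0.993. In bulk RNA of this kind, fewer cells of a type and less RNA per cell cannot be told apart. MITF and SOX10 were above the detection floor in every line, while MLANA, TYR and TYRP1 lay at the floor on all 24 h arrays of A375. WM2664 DMSO 24 h replicate 2 carried traces of A375: 35 probe sets that were bright in A375 and at the floor in WM2664 on the 6 h arrays stood at a median of 1.12% of their A375 level at 6 h, and 14 of them rose above the floor. The other 24 h arrays of WM2664 stood at 0.0642% and 0.225%. No leukocyte marker reached the level required for a test, and of 5 tested keratinocyte and epithelial markers none was called. Of 6 tested fibroblast markers LUM and POSTN were called lower, at -0.88 and -0.71, a count of 2 that was 0 without any 1 WM2664 array and several other DMSO arrays. The summed intensity of the 10 fibroblast markers on the array was 4834 and 5507 with DMSO and 4154 with A-485 in SKMEL5, 4953 and 4973 against 6738 in WM2664, and 2669 and 2965 against 798 in A375. COL3A1 and PDGFRA lay at the floor in all 3 lines. The part of these markers in the results was not tested.

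Values are array intensities scaled so that every array has the same distribution, with 32 as the floor. Such scaling cannot show a rise or fall common to most genes, so every difference is relative to the other genes. A difference is A-485 minus DMSO on the log2 scale of these intensities, so that 1.00 is a 2-fold change, and is given as the mean over the 3 lines ± SE from a limma fit with line as a block. A gene was called at a Benjamini-Hochberg adjusted p under 0.05 over the 11180 genes bright enough to test. It moved the same way in all 3 lines if it was called and its A-485 array lay beyond both DMSO arrays of its own line, in the same direction, each time.

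On the scaled arrays more genes rose than fell after 24 h of A-485, relative to the other genes, but the large changes were mostly decreases. The fit called 1658 genes higher (14.8% of those tested) and 917 lower (8.20%). Of these, 1616 moved up in all 3 lines (14.5% of those tested) and 789 moved down in all 3 (7.06%). A mean difference of at least 2-fold was reached by 62 of the 1616 and by 157 of the 789, and a difference of at least 2-fold in each line by 12 and 33. The median difference was 0.49 among the genes that moved up and -0.63 among those that moved down, against 0.03 over all genes tested. The counts depended on single arrays: without the WM2664 A-485 array 730 genes were called higher and 393 lower, and without the A375 A-485 array 2385 and 1662. Without WM2664 DMSO replicate 2, the array with traces of A375, 870 of the 1616 and 412 of the 789 kept their calls and directions. Leaving out replicate 1 of the DMSO arrays instead kept 907 and 411 for WM2664, 921 and 455 for SKMEL5 and 1109 and 566 for A375.

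The lines differed in how strongly they responded. The median absolute difference over all genes reached 0.33 for SKMEL5, 0.31 for WM2664 and 0.20 for A375, where the 2 DMSO arrays of a line differed by a median of 0.11, 0.10 and 0.09. Among the 789 shared decreases, SKMEL5 showed the largest fall for 298 genes, WM2664 for 321 and A375 for 170, and 702 of the 789 were above the floor on all 24 h arrays. A test of whether the 24 h response differed between lines, with the spread taken from the DMSO pairs, called 3515 genes (31.4%). It called 310 of the 1616 shared increases and 364 of the 789 shared decreases, and these genes shared a direction but not a size.

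Across the 44 lists of genes grouped by function or cell type that had a tested member, of 45 compiled, the share called lower was highest in ribosome biogenesis (52.6%), MITF targets outside pigmentation (48.6%) and melanocyte lineage factors (38.1%), and the share called higher was highest in metallothioneins and zinc transport and in tetrahydrobiopterin synthesis (7 of 14 and 3 of 6). A list's share of called members is read against the share of all genes tested, 14.8% higher and 8.20% lower. The lists were compiled with earlier results of these data known.

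**Figure D1:**
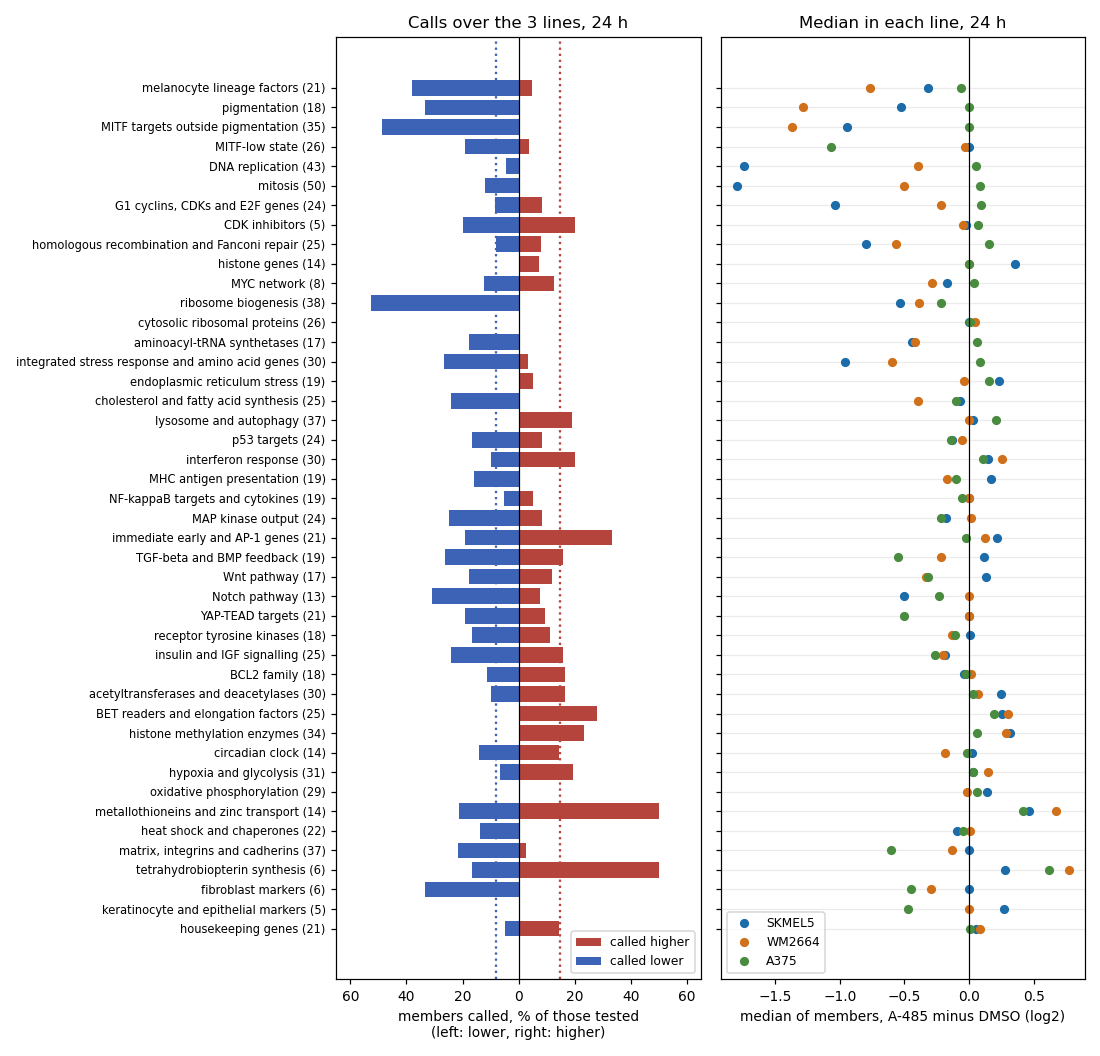
Left, the percentage of tested members of each list (number tested in brackets) called lower (blue, to the left) or higher (red, to the right) at 24 h, with dotted lines at the percentages of all genes tested, 8.20% and 14.8%. Right, the median difference of each list in SKMEL5, WM2664 and A375 on the log2 scale. Ribosome biogenesis lies below 0 in all 3 lines. DNA replication and mitosis lie at -1.74 and -1.79 in SKMEL5, at -0.40 and -0.50 in WM2664 and at 0.05 and 0.08 in A375.

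The 12 genes with the strongest shared decrease, ranked by the smallest difference among the lines, were LRATD2, MYC, NAV2, SNAI2, TIMP3, SLCO4A1-AS1, PLAT, TNFRSF21, NRP2, BAMBI, MCC and CYB5R2. All 12 were above the floor on every 24 h array. Their calls were kept in each of the 9 fits that leave out 1 array and in the 13 other settings tried. MYC, the growth-promoting transcription factor, fell by 2.53 ± 0.25 (adjusted p 0.00359, limma). Its scaled intensity was 2343 and 2385 on the DMSO arrays of SKMEL5 and 458 with A-485. In WM2664 it went from 2105 and 2109 to 199, and in A375 from 488 and 564 to 149. The A-485 array lay below both DMSO arrays in each line, as the definition of a shared decrease requires. The line test called MYC (adjusted p 0.000149).

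NAV2, a microtubule-associated navigator protein, had the lowest p of the 12. Its differences were -1.97 in SKMEL5, -1.95 in WM2664 and -1.77 in A375, with a mean of -1.90 ± 0.08 (adjusted p 0.000574, limma). The DMSO arrays ranged from 132 in A375 to 2436 in SKMEL5. Other probe sets of NAV2 gave smaller mean decreases of -1.41 and -1.11. LRATD2 fell by 2.48 ± 0.19 (adjusted p 0.00238, limma), with A-485 arrays at 385, 318 and 296 and DMSO arrays between 1378 and 2932. SNAI2, a neural crest transcription factor of the Snail family, fell by 2.09 ± 0.21 (adjusted p 0.00342, limma) and went from 2876 and 3141 to 849 in SKMEL5.

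Of the other members, TIMP3, a matrix-bound inhibitor of metalloproteinases, differed by -1.58, -1.92 and -3.24 in SKMEL5, WM2664 and A375. PLAT, the tissue plasminogen activator, differed by -1.42, -1.89 and -2.08 in the same order. NRP2, a semaphorin and VEGF co-receptor, differed by -1.66, -2.70 and -1.34. TNFRSF21 (death receptor 6) differed by -1.54, -1.38 and -2.92. BAMBI, a decoy receptor for TGF-beta family ligands, differed by -1.28, -1.45 and -2.15, and in A375 its A-485 array (47.7) approached the floor. The remaining members were MCC, CYB5R2, a cytochrome b5 reductase, and the antisense transcript SLCO4A1-AS1, with means of -1.62, -2.06 and -1.92. Which strand its probes read is not given in the sources used here.

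**Figure D2:**
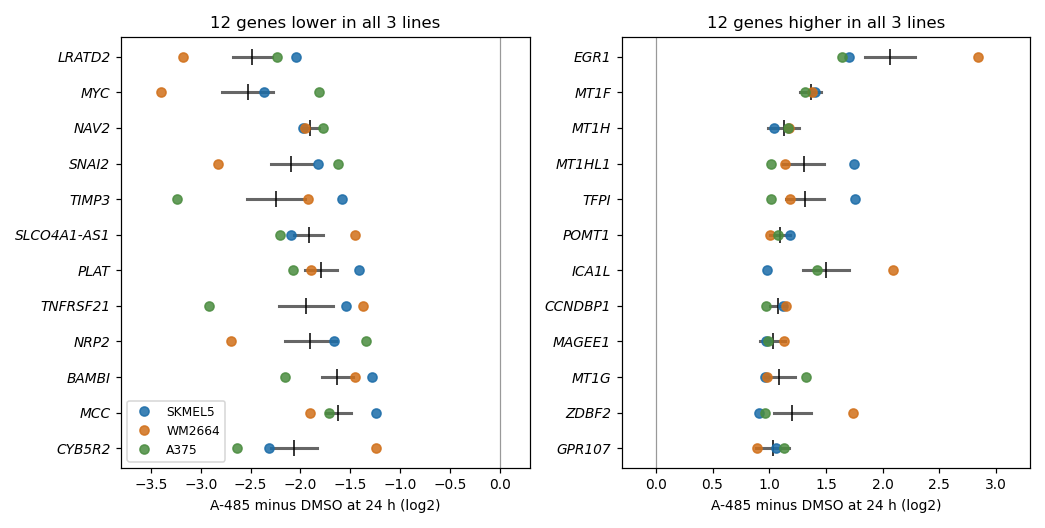
The 12 genes with the strongest shared decrease (left) and the strongest shared increase (right) at 24 h; each dot is the difference in 1 line on the log2 scale, and the bar is the mean over the lines ± SE. Dots of NAV2 run only from -1.97 to -1.77, while those of MYC run from -3.40 to -1.81 and those of EGR1 from 1.64 to 2.84.

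The 12 genes with the strongest shared increase were EGR1, MT1F, MT1H, MT1HL1, TFPI, POMT1, ICA1L, CCNDBP1, MAGEE1, MT1G, ZDBF2 and GPR107. Their calls were also kept in all 9 fits without 1 array and in every other setting that could test them. EGR1, an immediate early zinc finger factor, rose by 2.06 ± 0.22 (adjusted p 0.00379, limma). It went from 516 and 447 to 1568 in SKMEL5, from 382 and 404 to 2822 in WM2664 and from 228 and 250 to 742 in A375. All 3 probe sets of EGR1 were higher in every line. TFPI, an inhibitor of tissue factor, rose by 1.32 ± 0.17, and the SKMEL5 A-485 array (673) stood well above its DMSO arrays (197 and 202). POMT1, which starts O-mannosylation in the endoplasmic reticulum, rose by 1.09 ± 0.09.

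CCNDBP1, a helix-loop-helix protein that binds cyclin D1, rose by similar amounts in the 3 lines, 1.12, 1.15 and 0.97 in SKMEL5, WM2664 and A375 (mean 1.08 ± 0.07, adjusted p 0.00238, limma), from DMSO arrays between 618 and 811 to A-485 arrays between 1252 and 1744. MAGEE1 rose by 1.03 ± 0.11, ZDBF2, an imprinted gene in humans, by 1.20 ± 0.16 and GPR107 by 1.03 ± 0.14. ICA1L, whose SE was 0.20, and ZDBF2 rose most in WM2664, by 2.09 and 1.74.

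**Figure D3:**
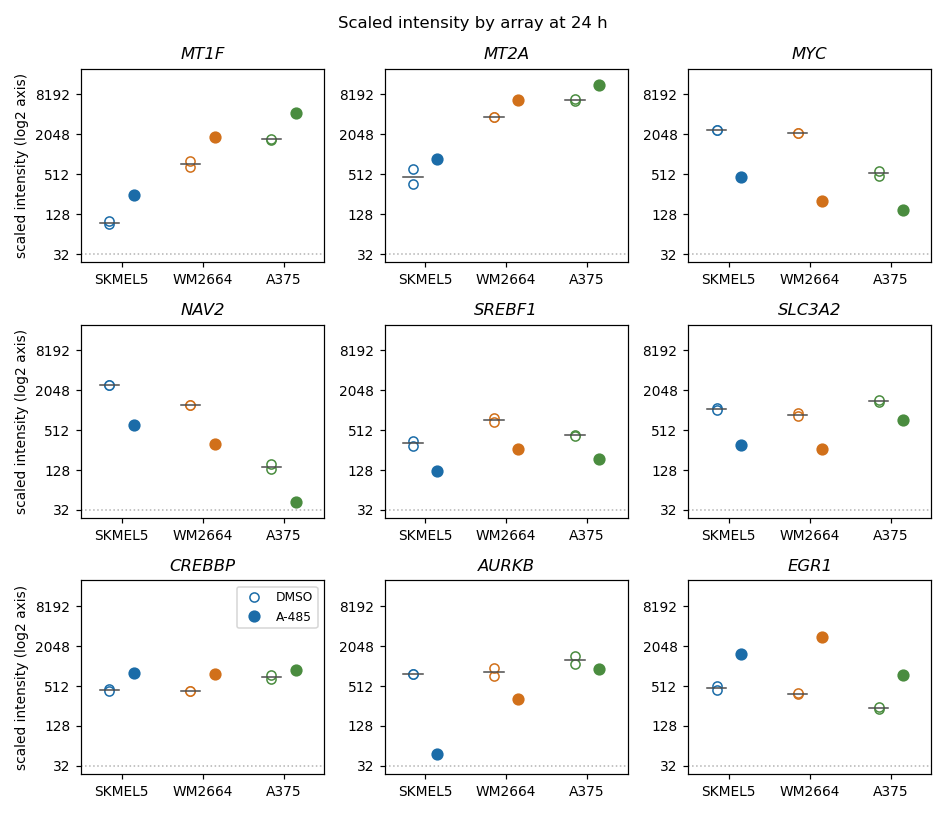
Scaled intensity on a log2 axis for 9 genes on each 24 h array; open circles are DMSO arrays with their mean as a bar, filled circles the A-485 array, and the dotted line is the floor of 32. The A-485 array lies outside the DMSO pair in every line for all 9 genes, and the fall of AURKB is far larger in SKMEL5, to 47.6, than in A375, to 923.

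Metallothioneins, small cysteine-rich proteins that bind zinc and copper, were among the genes that rose. Of 14 tested genes for metallothioneins and zinc transport, 7 rose in all 3 lines and 3 fell in all 3. MT1F rose by 1.40 in SKMEL5, 1.38 in WM2664 and 1.31 in A375 (mean 1.36 ± 0.09, adjusted p 0.00238, limma), although its DMSO level ran from 89.9 and 99.5 in SKMEL5 to 1675 and 1757 in A375. MT1H rose by 1.13 ± 0.14, MT1G by 1.09 ± 0.14 and MT1HL1, a metallothionein-like locus on chromosome 1 that is not in the list, by 1.30 ± 0.18. MT1X and MT2A, named here after their values were seen, rose by 0.95 ± 0.10 and 0.84 ± 0.16. MT1E rose by 0.27, 0.91 and 1.81, and its call was kept in 3 of the 9 fits without 1 array. Every metallothionein probe set used is of the kind that cross-hybridises with related transcripts, so that the members cannot be told apart; without such sets none of them could be tested, and the other set of MT1G lay at the floor throughout. The remaining member of the list that rose was SLC30A5, which moves zinc into the secretory pathway.

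The 3 members that fell were all zinc transport genes. SLC30A1, the zinc exporter of the plasma membrane, differed by -0.06 in SKMEL5, -0.96 in WM2664 and -0.57 in A375 (mean -0.53 ± 0.15). In SKMEL5 its A-485 array (1277) lay just below its DMSO arrays (1374 and 1286). The importers SLC39A10 and SLC39A14 fell by 0.58 and 0.61. The count of 3 dropped to 1 without the SKMEL5 A-485 array or any 1 WM2664 array. MTF1, the zinc-sensing factor that drives metallothionein genes, was at 0.39 ± 0.14 and was not called (adjusted p 0.0772, limma). The promoters of MT1H, MT1X and MT2A are shown because these genes rose, and the known regulator of metallothionein genes binds short metal response elements. They are the 150 bases before each RefSeq start in GRCh38.p14, on the plus strand, at chr16:56669664-56669813, chr16:56682320-56682469 and chr16:56608434-56608583. Capitals mark matches to TGCGCNC or TGCACNC on either strand, letters that were searched after the metallothioneins had been seen to rise.
MT1H: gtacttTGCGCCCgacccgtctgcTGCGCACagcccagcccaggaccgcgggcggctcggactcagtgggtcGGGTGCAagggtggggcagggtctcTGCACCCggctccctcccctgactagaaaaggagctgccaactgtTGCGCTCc
MT1X: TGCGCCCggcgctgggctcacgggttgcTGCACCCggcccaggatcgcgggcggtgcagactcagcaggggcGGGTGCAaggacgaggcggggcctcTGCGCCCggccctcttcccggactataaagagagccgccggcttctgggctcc
MT2A: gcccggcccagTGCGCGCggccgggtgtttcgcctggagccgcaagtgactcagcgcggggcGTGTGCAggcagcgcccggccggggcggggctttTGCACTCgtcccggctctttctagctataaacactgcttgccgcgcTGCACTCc

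The printed stretches hold 5 matches in MT1H, 4 in MT1X and 4 in MT2A. Within 300 bases around the start, 250 before and 50 after, the G form was found in 5453 of 27305 RefSeq promoters and the A form in 3246, and each in 3 of 3 metallothionein promoters. Among the 1373 shared increases with a promoter in the table the shares were 29.6% and 11.1%, against 31.7% and 11.4% of the 9228 tested genes with one. A match is a description of the sequence, not evidence of binding.

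Several factors of the melanocyte lineage fell, with list medians of -0.32 (SKMEL5), -0.77 (WM2664) and -0.06 (A375). Of 21 tested, 8 were called lower (5 without any 1 WM2664 array or SKMEL5 DMSO replicate 2), 6 of them in all 3 lines, and 1 (PAX3) higher. MITF differed by -0.50, -1.51 and -1.49 in SKMEL5, WM2664 and A375 (mean -1.17 ± 0.19, adjusted p 0.00999, limma). Its scaled intensity went from 6600 and 6712 to 4714 in SKMEL5, from 4981 and 5044 to 1762 in WM2664 and from 426 and 468 to 159 in A375. ERBB3, a receptor of the neuregulin family, fell by 1.82 ± 0.25, SOX9 by 1.29 ± 0.21, to the floor in SKMEL5, and SOX10, which activates MITF and was named after its values were seen, by 0.62 ± 0.17. In WM2664 SOX10 moved only from 3416 and 3417 to 2830, whereas in A375 it fell from 729 and 772 to 319.

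Of 35 tested targets outside pigmentation, 17 were called lower and none higher, but only 9 were lower in all 3 lines. The list's medians were -0.94 (SKMEL5), -1.37 (WM2664) and 0.00 (A375). In A375 the A-485 array lay below both DMSO arrays for 11 of the 35 and above them for 9. The count of 17 ran from 3 without the WM2664 A-485 array to 29 without the A375 A-485 array, and was 4 without WM2664 DMSO replicate 2. SLC7A5, the large neutral amino acid transporter, fell by 2.17 ± 0.39, and LYST, a regulator of lysosome size, by 0.93 ± 0.20, to the floor in A375. CDK2, the kinase that drives entry into S phase, differed by -1.85 and -1.37 in SKMEL5 and WM2664 and stood at -0.11 in A375. Of 18 pigmentation genes, 6 were called lower, 4 in all 3 lines. This list's medians were -0.53 (SKMEL5), -1.29 (WM2664) and 0.00 (A375), and in A375 7 genes lay below both DMSO arrays and 6 above. The count of 6 was 2 without the SKMEL5 or the WM2664 A-485 array and 11 without the A375 A-485 array. MLPH, which links melanosomes to myosin, fell by 1.45 ± 0.26 and HPS5, a melanosome biogenesis factor, by 0.90 ± 0.17, while TYR, named after its values were seen and not called, differed by -0.25 in SKMEL5 and -0.63 in WM2664 and lay at the floor in A375. The calls of SLC7A5 and HPS5 ended without the SKMEL5 or the WM2664 A-485 array, that of LYST without any 1 WM2664 array, and that of CDK2 without any 1 array of SKMEL5 or WM2664.

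Genes of ribosome biogenesis, the nucleolar factory that makes ribosomal RNA and assembles subunits, fell by modest amounts. Of 38 tested, 20 were called lower (52.6%) and none higher, and all 20 were lower in all 3 lines. The list's medians were -0.53 (SKMEL5), -0.39 (WM2664) and -0.22 (A375), where that of all genes was 0.05, 0.03 and 0.03. The A-485 array lay below both DMSO arrays for 34 of the 38 genes in SKMEL5, 33 in WM2664 and 34 in A375, against 3993, 4126 and 3805 of all 11180 genes. MRTO4, which helps assemble the large subunit, fell by 0.74 ± 0.10, and NOP16, a nucleolar protein, by 0.85 ± 0.15. LYAR and RRS1 fell by 0.75 each. The count of 20 fell to 5 without the WM2664 A-485 array, to 6 without the SKMEL5 A-485 array and to between 8 and 13 without any 1 DMSO array, and it was 1 with the values as deposited and no scaling. Of those named, the call of MRTO4 was kept in all 9 fits without 1 array.

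The promoters of IMP4, UTP20 and UTP4 are shown because they are the 3 among the fallen ribosome biogenesis genes that hold, before the start, the E-box CACGTG that MYC binds. They are 100 bases each of the RefSeq table in GRCh38.p14, on the plus strand, at chr2:130342649-130342748, chr12:101280005-101280104 and chr16:69132549-69132648, with the E-box in capitals. These genes, named for the motif after their values were seen, fell by 0.70, 0.55 and 0.25. Here too a match is not evidence of binding, and a part of MYC in these decreases was not tested.
IMP4: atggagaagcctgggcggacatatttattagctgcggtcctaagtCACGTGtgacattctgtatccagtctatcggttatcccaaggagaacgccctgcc
UTP20: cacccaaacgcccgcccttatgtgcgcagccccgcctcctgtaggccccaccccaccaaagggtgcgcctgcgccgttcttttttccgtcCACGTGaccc
UTP4: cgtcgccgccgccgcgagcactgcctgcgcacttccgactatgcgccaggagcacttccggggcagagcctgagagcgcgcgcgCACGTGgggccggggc

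Within the 300-base window CACGTG was present in 7 of the 16 fallen ribosome biogenesis genes with a promoter in the table (43.8%), against 12 of 31 of those tested (38.7%), 12.7% of the 631 shared decreases, 10.7% of all tested genes and 7.43% of all 27305 promoters. In the 250 bases before the start alone it was present in 3 of the 16 (18.8%), 4 of the 31 (12.9%), 8.88% of the shared decreases, 9.28% of tested genes and 6.49% of all promoters, so that the shared decreases lay above the tested genes in the longer window and below them in the shorter one. MXD1, which competes with MYC for the shared partner MAX, moved opposite to MYC and rose by 1.80 ± 0.20 (adjusted p 0.00391, limma). It went from 73.8 and 71.3 to 314 in SKMEL5, from the floor and 33.8 to 147 in WM2664 and from 112 and 141 to 275 in A375. Of 8 tested genes of the MYC network only 1 was called higher and 1 lower (12.5% each). Among all genes tested the shares were 14.8% higher and 8.20% lower. None of 26 cytosolic ribosomal protein genes was called in either direction, and their median was 0.02.

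Several genes for amino acid uptake fell. Of 30 genes of amino acid handling and the integrated stress response, 8 were called lower, 6 in all 3 lines, and 1, ATF5, was called higher. The list's medians were -0.96 (SKMEL5), -0.60 (WM2664) and 0.09 (A375). In A375 the A-485 array lay below both DMSO arrays for 9 of the 30 and above them for 11. The count of 8 was 2 without the SKMEL5 or the WM2664 A-485 array and 19 without the A375 A-485 array. SLC3A2, the heavy chain that carries SLC7A5 to the membrane, fell by 1.48 ± 0.15 (adjusted p 0.00374, limma) and kept its call in all 9 fits without 1 array. Its scaled intensity went from 1101 and 1027 to 308 in SKMEL5, from 912 and 829 to 269 in WM2664 and from 1378 and 1465 to 731 in A375. The A-485 array lay below both DMSO arrays in each line, again by definition. ATF3, a stress-induced transcription factor, differed by -1.79, -1.32 and -0.85 in the same order, with the WM2664 A-485 array at the floor. SLC1A5, a glutamine transporter, differed by -2.06 in SKMEL5, -1.83 in WM2664 and -0.13 in A375; its call was kept in 3 of 9 fits.

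Some regulators and enzymes of lipid synthesis fell in all 3 lines. Of 25 tested genes, 6 were called lower, all in the 3 lines, and none higher; without any 1 WM2664 array the count was 4. SREBF1, the transcription factor that drives fatty acid synthesis, differed by -1.39, -1.44 and -1.18 (mean -1.34 ± 0.10, adjusted p 0.00238, limma). It went from 353 and 294 to 123 in SKMEL5, from 782 and 671 to 268 in WM2664 and from 432 and 421 to 188 in A375. FASN, the fatty acid synthase, and LSS, a cholesterol synthesis enzyme, both named after their values were seen, fell by 0.78 ± 0.11 and 0.59 ± 0.07. SCD, a desaturase, differed most in WM2664, by -1.44, and its call was kept in 7 of 9 fits.

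Some genes for the machinery of transcription and chromatin rose by small amounts. CREBBP, one of the targets of A-485, rose by 0.84, 0.88 and 0.38 (mean 0.70 ± 0.11, adjusted p 0.0105, limma), from 462 and 427 to 797 in SKMEL5, from 426 and 434 to 789 in WM2664 and from 644 and 754 to 908 in A375. EP300 was higher by 0.51 ± 0.13 (adjusted p 0.0340, limma), but this call was kept in only 3 of 9 fits without 1 array. Of 30 acetyltransferases and deacetylases 5 were called higher (16.7%) and 3 lower (10.0%), near the 14.8% and 8.20% of all genes tested. Of 34 histone methylation enzymes 8 were called higher (23.5%) and none lower, all 8 in the 3 lines. KDM4B, a demethylase of histone H3, rose by 0.95 ± 0.14, and KMT2D, a methyltransferase at enhancers, by 0.53 ± 0.07. Of 25 bromodomain readers and elongation factors 7 were called higher and none lower. LARP7, which holds the elongation kinase in its inactive complex, rose by 0.45 ± 0.08, and AFF4, a scaffold of the super elongation complex, by 0.38 ± 0.07, although another probe set of AFF4 went the other way. The counts of 8 and 7 were 5 and 3 without the WM2664 A-485 array and 2 and 0 with the values as deposited and no scaling.

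Of 6 genes for tetrahydrobiopterin, the cofactor of aromatic amino acid hydroxylases, 3 rose and 1 fell. GCH1, the first enzyme of the pathway, rose by 1.29 ± 0.18, from 214 and 212 to 395 in SKMEL5, from 236 and 203 to 801 in WM2664 and from 279 and 326 to 656 in A375. PCBD1 and PTS, which act in recycling and synthesis, rose by 0.71 and 0.67. QDPR, which regenerates the cofactor, differed by -1.07, -1.88 and -0.15 in SKMEL5, WM2664 and A375, and its call was kept in 3 of 9 fits. Among 14 clock genes, NPAS2, a partner of BMAL proteins, fell, with differences of -0.96, -0.86 and -1.05, and BMAL2 rose by 0.89 ± 0.13. Of the 14, 2 were called each way (14.3%), against 14.8% higher and 8.20% lower of all genes tested.

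Of 37 lysosome and autophagy genes 7 were called higher (18.9%, near the 14.8% of all genes tested) and none lower. The A-485 array lay above both DMSO arrays for 16 of the 37 in SKMEL5 and below them for 17, for 17 and 16 in WM2664 and for 25 and 8 in A375. The count of 7 was 3 without the WM2664 A-485 array and 1 with no scaling, and 7 genes of the list were called lower without the A375 A-485 array. ULK1, the kinase that starts autophagy, rose by 0.68 ± 0.12 and GABARAPL2, an autophagosome protein, by 0.55 ± 0.07. In insulin signalling 4 of 25 genes were called higher (also near that share) and 6 lower (24.0%); without 1 array the first count ranged from 2 (without SKMEL5 DMSO replicate 1, the SKMEL5 A-485 array or A375 DMSO replicate 2) to 4 and the second from 4 (without either SKMEL5 DMSO array, WM2664 DMSO replicate 2 or A375 DMSO replicate 2) to 8. IRS2, an adaptor of the insulin receptor, fell by 1.15 ± 0.21, and FOXO4, a transcription factor restrained by that pathway, rose by 0.78 ± 0.08, from the floor in A375.

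The lists of signalling pathways had members called in both directions. Of all genes tested 14.8% were called higher and 8.20% lower. PMEPA1 and SMAD7, feedback inhibitors of TGF-beta signalling, fell by 1.88 ± 0.15 and 1.07 ± 0.11. In that list 5 of 19 genes were called lower (26.3%) and 3 higher (15.8%). PMEPA1 lay at the floor on the A-485 arrays of SKMEL5 and WM2664, so that its fall there is limited by the floor. HEY1, a Notch target, fell by 1.43 ± 0.15, reaching the floor in A375. Of 13 Notch genes 4 were called lower (30.8%) and 1 higher (7.69%). ROR1, a Wnt receptor, fell by 2.05 ± 0.25 to the floor in SKMEL5 and A375, so that these 2 differences are limited by the floor. FZD7, another Wnt receptor, fell by 0.88 ± 0.08. Of 17 Wnt genes 3 were called lower (17.6%) and 2 higher (11.8%, near the share of all genes). CD74, the invariant chain of class II presentation, differed by -0.70, -0.64 and -0.65. Of 19 antigen presentation genes 3 were called lower (15.8%) and none higher. IRF7, a regulator of interferon genes, rose by 1.23 ± 0.25 and PARP14 by 1.00 ± 0.11, in a list where 6 of 30 were called higher and 3 lower. CD44, a hyaluronan receptor, fell by 1.02 ± 0.08, in a list of 37 matrix and adhesion genes with 8 called lower and 1 higher. Leaving out 1 array moved these counts: the lower calls of the TGF-beta list ranged from 3 to 6, of the Notch list from 1 (without SKMEL5 DMSO replicate 1, WM2664 DMSO replicate 1 or either A375 DMSO array) to 4, and of the matrix list from 5 to 8, and the higher calls of the interferon list from 2 (without the SKMEL5 A-485 array) to 10 (without the A375 A-485 array).

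Most cell cycle genes were not called over the 3 lines. Of 43 DNA replication genes 2 were called lower (GINS4 and PRIM2), and of 50 mitosis genes 6, with none higher. The replication list had medians of -1.74 (SKMEL5), -0.40 (WM2664) and 0.05 (A375), and the mitosis list -1.79, -0.50 and 0.08. The A-485 array lay below both DMSO arrays for 42 replication and 50 mitosis genes in SKMEL5 and for 39 and 48 in WM2664. In A375 it lay below them for 15 and 14 and above them for 22 and 29. The line test called 40 of the 43 and 47 of the 50, against 31.4% of all genes. Without the A375 A-485 array 32 and 45 genes were called lower, and without any 1 WM2664 array none of either list. AURKB, a mitotic kinase, went from 772 and 771 to 47.6 in SKMEL5, from 734 and 948 to 326 in WM2664 and from 1427 and 1091 to 923 in A375; its call (adjusted p 0.0495, limma) was kept in 1 of 9 fits. CDK1, the kinase of mitotic entry, named after its values were seen, differed by -3.34, -0.58 and 0.27. CDKN1C, an inhibitor of cyclin-dependent kinases, instead fell in every line by 2.31 ± 0.22, to the floor in WM2664 and A375.

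**Figure D4:**
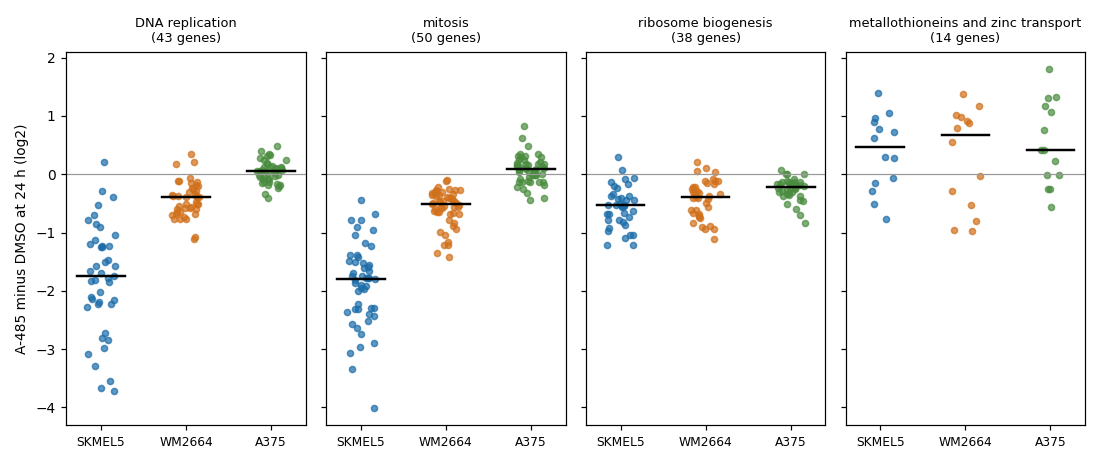
Difference at 24 h on the log2 scale for each tested gene of DNA replication, mitosis, ribosome biogenesis and metallothioneins and zinc transport, by line; each dot is a gene and each bar the list's median. Replication and mitosis genes center on -1.74 and -1.79 in SKMEL5 but on 0.05 and 0.08 in A375, while the ribosome biogenesis medians are -0.53, -0.39 and -0.22.

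Much of the shared 24 h response was present at 6 h. At 6 h 2047 genes were called higher (18.3% of those tested) and 1095 lower (9.79%). Of the 1616 shared increases 871 were called higher at 6 h, 14 lower and 731 not called, and of the 789 shared decreases 389 were called lower, 3 higher and 397 not called. Without the 2 DMSO arrays of 6 h that carried transcripts of another line, WM2664 replicate 1 and A375 replicate 1, 371 and 208 were called in the direction of 24 h. The difference between the times was called higher at 24 h for 111 genes (0.993%) and lower for 71 (0.635%). Among the shared increases it was larger at 24 h for 83 genes and smaller for 1. Among the shared decreases the fall was larger for 33 and smaller for 4. These genes were chosen on the 24 h arrays, which favours larger sizes at 24 h, so these counts do not compare the times fairly. By the same rule at 6 h, 1138 genes moved up and 554 moved down in all 3 lines without doing so at 24 h. With the values as deposited and no scaling no difference between times was called.

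MT1F was a late gene: it stood at 0.14 ± 0.07 at 6 h (adjusted p 0.180, limma) and at 1.36 at 24 h, a difference of 1.22 (adjusted p 0.000696, limma). GPR107 went from -0.46 ± 0.18 to 1.03, and SELENOM, a selenoprotein of the endoplasmic reticulum, from 0.65 to 1.75, values limited by the floor on all DMSO arrays of SKMEL5 and on those of WM2664 at 6 h. TIMP3 fell by 0.83 at 6 h and by 2.25 at 24 h, CYB5R2 by 0.81 and 2.06, CDKN1C by 1.01 and 2.31, and VDR, the vitamin D receptor, by 0.58 and 1.57; at 24 h the A-485 arrays lay at the floor for CDKN1C in WM2664 and A375 and for VDR in SKMEL5. MAML3, a Notch coactivator, was lower at 6 h by 1.20 ± 0.16 and higher at 24 h by 0.35 ± 0.10, and DNAJB1, a heat shock cochaperone, was higher by 0.21 and then lower by 0.42. The 24 h call of MAML3 was kept in 2 of 9 fits without 1 array. MYC, at -3.44 ± 0.21 and -2.53, and EGR1, at 2.55 ± 0.18 and 2.06, were called at both times, and the difference between times was not called for either (adjusted p 0.176 and 0.395, limma).

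**Figure D5:**
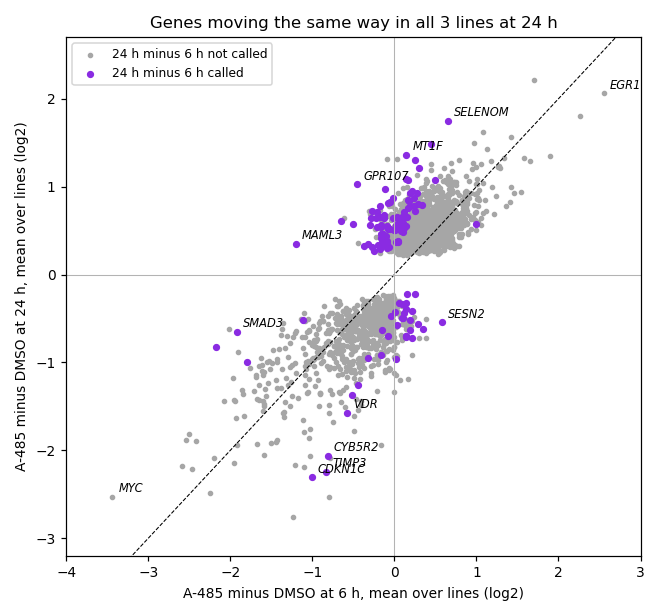
Mean difference over the lines at 24 h against that at 6 h, both on the log2 scale, for the genes that moved the same way in all 3 lines at 24 h; purple marks genes whose difference between times was called. MT1F lies near 0 at 6 h and at 1.36 at 24 h, and MYC and EGR1 lie far from 0 at both times.

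Where a shared direction hid unequal sizes, the largest called differences between lines were those of AURKB, ADGRG1, CCN2, ZNF703 and ZNF367. ADGRG1, an adhesion receptor, differed by -0.96 in SKMEL5, -4.43 in WM2664 and -2.88 in A375 (line test, adjusted p 5.63e-06, limma), and its shared call was kept in all 9 fits. Its scaled intensity went from 3243 and 3339 to 153 in WM2664. CCN2, a secreted matrix protein, rose by 2.60, 3.66 and 0.37, and its shared call was kept in 3 of 9 fits. ZNF367 went from 293 and 322 to the floor in SKMEL5 and from 660 and 730 to 537 in A375, and its shared call was kept in 1 of 9 fits.

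Where a shared gene had other probe sets, these mostly pointed the same way. Of 1528 other sets of the shared increases 95.2% had a mean above 0, and of 656 other sets of the shared decreases 98.5% had a mean below 0. In all 3 lines the sign was shared by 75.6% and 71.8% of them. For MITF the other sets gave -1.42 and -0.72.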

How the data were processed

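Each of the 18 samples was hybridised to its own Affymetrix array of the HG-U133 Plus 2.0 design. The deposited values are linear intensities, with 19.3% to 22.9% of the values below 0 and medians between 19.5 and 29.0. How the authors made these intensities is not given in the sources used here. The arrays were quantile normalized together, set to a floor of 32 and then taken to log2, starting from the deposited values. Of 54613 probe sets 41091 had 1 gene symbol, 1801 several and 11721 none in the platform annotation. Each gene took its brightest probe set, which gave 19775 genes, and 11180 with a mean log2 of at least 5.5 over the 9 arrays of 24 h were tested.

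Differences were fitted in limma 3.58.1 (R 4.3.3) with line as a block, which left 5 residual degrees of freedom, and p-values were adjusted over all 11180 genes. The difference between lines was fitted with group means over 18 arrays and the difference between times in 1 model over both times. The number of arrays limits the precision: the median SE was 0.12. On simulated data with 100 genes changed 2-fold and 100 changed 4-fold, the 24 h fit recovered 73% and 93%, with 9 false calls. Deviations of DMSO arrays with the same replicate number correlated at 0.04, -0.02 and 0.02 between lines at 24 h. These correlations use DMSO arrays only, and every A-485 array is labelled replicate 1. A batch that sets the A-485 arrays apart cannot be seen in them and was not tested. Whether an A-485 array pairs with a DMSO array of its own line cannot be checked in this way.

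The text names MITF, EP300 and CREBBP, the 12 genes each way with the largest smallest difference among the lines and above the floor on all 9 arrays, up to 4 members per list that moved the same way, and the 5 genes each way or between lines with the largest called difference of time or line. PAX3, ATF5, LSS, LUM, POSTN, SLC30A1, SLC30A5, SLC39A10 and SLC39A14 were named after their values were seen, as were genes so marked in the text. Genes and lists were chosen with earlier results of these data known. Other scalings, floors, filters, probe set rules, fits and arrays left out were tried as alternatives.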

Additional observations from a re-analysis of the deposited data

Results flagged for a closer look

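The 24 h difference was called different between the lines for 3515 genes, tested as an interaction in limma over all genes. The genes named in the text that passed this test are given with its adjusted p in brackets, by the line with the largest difference.

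In SKMEL5 the difference was largest for AURKB (7.74e-05), CDK1 (4.76e-07), CDK2 (3.77e-05), MTF1 (0.0331), RRS1 (0.0153), SLC1A5 (0.0013), SLC3A2 (0.00217) and SLC7A5 (0.000646). SKMEL5 also had the largest difference for ZNF367 (2.88e-05) and ZNF703 (0.0102). In WM2664 the difference was largest for ADGRG1 (5.63e-06), CCN2 (0.000342), EGR1 (0.00226), GCH1 (0.00499), HPS5 (0.000269), ICA1L (0.024), IRF7 (0.00357), IRS2 (0.000419) and LRATD2 (0.000115). WM2664 also had the largest difference for MCC (0.0148), MITF (0.000763), MLPH (2.83e-05), MXD1 (0.0112), MYC (0.000149), NOP16 (0.000895), NRP2 (0.0372) and QDPR (2.88e-05). WM2664 also had the largest difference for CDKN1A (2.63e-05), SCD (0.000161), SLC30A1 (0.0071), SLC39A10 (0.00396), SNAI2 (0.0157), TYRP1 (0.0361) and ZDBF2 (0.0258). In A375 the difference was largest for BAMBI (0.00657), CYB5R2 (0.000187), ERBB3 (0.000349), LYST (0.00315), MT1E (0.000299), SLCO4A1-AS1 (0.0338), SOX10 (0.00821) and TIMP3 (0.00334). A375 also had the largest difference for TNFRSF21 (0.00058). TYRP1, a pigment enzyme, lay at the floor in A375. For CDKN1C (0.00537), HEY1 (0.00232), ROR1 (0.00111) and SELENOM (0.000229) the lines are not ranked, because arrays at the floor leave only a bound on the difference in at least 1 line.

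The difference between 24 h and 6 h was called higher for 111 genes and lower for 71, in a limma contrast over all 18 arrays. It was higher for CCNDBP1 (0.0171), GABARAPL2 (0.0333), GPR107 (0.0183), MAML3 (0.00796), MT1F (0.000696), MT1G (0.0338), MT1HL1 (0.0461), MT1X (0.049), PCBD1 (0.0456) and SELENOM (0.0345), with the adjusted p in brackets. It was lower for CDKN1C (0.0302), CYB5R2 (0.0338), DNAJB1 (0.00908), IMP4 (0.0443), TIMP3 (0.0497) and VDR (0.0346).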

How the results depend on the processing

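Without scaling of the deposited values 850 genes were called at 24 h (479 higher and 371 lower), 464 and 290 of them the same way in all 3 lines, 0 differed between times and 991 between lines. Without the filter on dim genes 1432 were called (1050 and 382, all the same way), and 1955 at 6 h. With a trend in the prior variance 316 differed between times. A fit of group means, whose spread comes only from the DMSO pairs, called 5442 genes over 9 arrays (2952 and 2490) and 6080 over 18 arrays (3348 and 2732). A 2-fold difference in each line was reached by 12 and 33 genes. The share of higher among called genes was 64.4%, against 56.4% without scaling, 73.3% without the filter and 54.2% and 55.1% with group means.

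With the replicate number as a block, 488 genes were called (316 and 172), 314 and 172 the same way, and 1346 at 6 h. Whether the number pairs A-485 and DMSO arrays within a line is not known. Leaving out 1 array gave 1123 to 4047 called genes, 730 to 2385 higher and 393 to 1662 lower, and the same ranges for genes moving the same way, which without an A-485 array were counted over the other two lines alone; the lowest values came without the WM2664 A-485 array and the highest without the A375 A-485 array. At 6 h the range was 1634 to 3724, and 1085 without the 2 arrays carrying another line's transcripts, an alternative chosen after seeing the data. Of 152 genes named by the rule none changed direction under these alternatives, and 88 kept their call without each array in turn; the block ended 86 calls, no filter 57 and no scaling 55. The cause was not tested.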
